A study of Homo sapiens with 9 samples.

Results

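The OAS, STAT and interferon-stimulated genes described here are OAS1, OAS2, OAS3, IFI27, IFI6, ISG15, STAT2, IRF9 and IFIT1. They were taken by name from the gene models counted in every library, and are 9 of 26485 models. RNA was measured in HAP1, a near-haploid human cell line that grows attached to its dish and derives from a chronic myeloid leukaemia line. All 9 libraries are of wild-type (WT) HAP1 cells in the same medium, and the labels name no interferon, virus or other treatment, so the levels are basal ones. Cells were sorted by number, total RNA was isolated with NAxtra magnetic beads, and stranded libraries were made with the SMART-Seq Stranded Kit. The groups were 3 libraries of 1 cell each (Single Cell Rep 1 to 3) and 2 libraries each of 10, 100 and 1000 cells (10 Cell, 100 Cell and 1000 Cell Rep 1 and 2). The labels call the replicates biological without naming their cultures, so p-values measure the spread between these libraries only, and each single-cell library stands for 1 cell.

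Interferons are secreted alarm signals. Type I interferons bind the receptor chains IFNAR1 and IFNAR2, the kinases JAK1 and TYK2 then phosphorylate STAT proteins, and STAT2 joins another STAT protein and IRF9 in the complex ISGF3, which binds the interferon-stimulated response element in promoters. The genes switched on in this way include the OAS enzymes, which make oligoadenylates when they meet double-stranded RNA, and ISG15, IFIT1, IFI6 and IFI27. Many cells hold low levels of such products without added interferon.

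The libraries held 42842970 to 61645865 counts assigned to genes, and 13968 to 18634 gene models had at least 1 count. The cell type was looked at through marker genes: GATA1, HBG1 and MPO (blood cells), DCN and LUM (fibroblasts) and TNFRSF17 (plasma cells) had 0 counts in every library, and PTPRC had 1 count in all libraries together. Other genes of these lists were present: XBP1 at 178 TPM and SDC1 at 29.5 TPM (transcripts per 1000000, from counts divided by the length of the gene model) in the 1000-cell libraries on the plasma cell list, COL1A1 at 4.47 TPM on the fibroblast list and KIT at 2.25 TPM on the blood list. The fibroblast marker THY1 had 542 counts in Single Cell Rep 2, 0 in the other 2 cells and 19 to 101 in the larger libraries. BCR and ABL1, whose fusion marks chronic myeloid leukaemia, had counts in every library. The summed levels of the blood list ranged from 0 to 6.51 CPM (counts per 1000000, on TMM-scaled library sizes) in single cells and from 4.96 to 8.62 CPM in the other libraries. The fibroblast list summed to 7.59 to 15.3 CPM against 10.3 to 18.2 CPM, and the plasma cell list to 146 to 205 CPM against 189 to 210 CPM. The part of other cells in the values below was not tested.

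The 3 OAS genes lie side by side on chromosome 12 of hg38, all on the plus strand. The gene model of OAS1 runs from 112906934 to 112919907, that of OAS3 from 112938433 to 112973249 and that of OAS2 from 112978469 to 113011723. Between OAS1 and OAS3 there are 18525 bases, between OAS3 and OAS2 there are 5219 bases, and 0 other gene models lie in these gaps. STAT2 is also on chromosome 12 (56341598 to 56360253, minus strand). IRF9 (24161213 to 24166566) and IFI27 (94110733 to 94116699) are on the plus strand of chromosome 14, ISG15 (1013467 to 1014539, plus strand) and IFI6 (27666061 to 27672213, minus strand) on chromosome 1, and IFIT1 (89392546 to 89406487, plus strand) on chromosome 10. No exon of a member overlapped an exon of another gene model on either strand. IFI27 also has a model on an alternate contig, and reads that match both copies were left out of the counts as multi-mapped.

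The promoter stretches that hold the response element are shown because ISGF3 is known to bind this element and because the list was made without promoter sequences. The motif searched was GAAANNGAAA on both strands, in the 250 bases before and the 50 bases after each RefSeq gene start (GRCh38.p14). Capitals mark the matches, with overlapping matches run together, and each stretch is read 5′ to 3′ on the strand of its gene.
ISG15, chr1:1013369-1013414, plus strand: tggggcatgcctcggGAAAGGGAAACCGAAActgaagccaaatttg
IFI6, chr1:27672261-27672363, minus strand: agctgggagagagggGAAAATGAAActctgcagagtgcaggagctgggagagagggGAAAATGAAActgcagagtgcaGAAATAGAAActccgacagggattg
IFIT1, chr10:89392492-89392544, plus strand: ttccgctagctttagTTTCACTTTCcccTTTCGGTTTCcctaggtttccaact
OAS3, chr12:112938316-112938355, plus strand: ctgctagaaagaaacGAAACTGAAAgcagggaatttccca
IFI27, chr14:94110613-94110665, plus strand: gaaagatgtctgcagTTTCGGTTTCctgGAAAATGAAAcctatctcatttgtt

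A promoter entry was found for 8 of the 9 members, the exception being OAS2. The motif was present in 5 of these 8 genes (62.5%), in 25 of 37 other interferon-stimulated genes with an entry (67.6%), in 0 of 7 receptor and kinase genes, and in 4.38% of all 27305 genes with a promoter of this length. Counted from the start, the matches of ISG15 began at -113 and -107 and overlapped each other. Those of IFI6 began at -156, -115 and -93, those of IFIT1 at -116 and -103 on the other strand, and those of OAS3 at -143 and at -12, the latter outside the stretch printed above. IFI27 has 2 annotated starts. Its matches lay at -108 on the other strand and -95 from the upstream start, and at -187 and -174 from the downstream start. The promoters of OAS1, STAT2 and IRF9 held no match. With 1 base between the GAAA blocks in place of 2, a spacing chosen after the promoters were seen, OAS1 had a match at -17 and OAS3 at -148, and 3.87% of all genes had one. A match is a description of letters and not of a bound site.

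**Figure D1:**
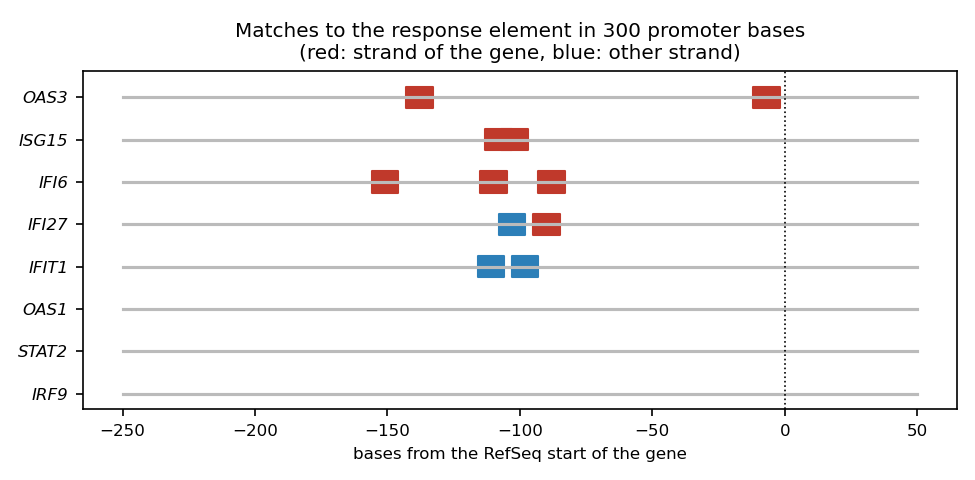
Position of each match to the response element in the promoters of 8 members, in bases from the RefSeq gene start on the horizontal axis, with 1 row per gene, red for the strand of the gene and blue for the other strand. In ISG15, IFI6, IFIT1 and IFI27 (from its upstream start) the matches begin between -156 and -93, OAS3 has 1 at -143 and 1 at -12, and OAS1, STAT2 and IRF9 have none with 2 bases between the blocks.

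The basal order of the members was read from the 1000-cell libraries, as TPM, because levels of different genes are comparable only per length. The signalling genes were the highest. STAT2 stood at 25.7 ± 0.367 TPM and IRF9 at 15.1 ± 1.35 TPM (SD, n = 2 here and in the next sentences). Then came IFI6, an inner mitochondrial membrane protein that opposes cell death, at 8.58 ± 0.866 TPM and ISG15, a ubiquitin-like modifier, at 8.22 ± 2.12 TPM. The next in order were OAS3 at 3.48 ± 0.0651 TPM and IFIT1, which binds RNA whose cap lacks the methylation of host messages, at 2.54 ± 0.285 TPM. The lowest were IFI27 at 0.513 ± 0.194 TPM and OAS2 at 0.148 ± 0.0449 TPM, and OAS1 had 0 counts in both libraries. Reads of IFI27 that match both its copies were left out, and whether its deposited length covers both copies was not checked. Its level and place may therefore be too low. IFI6 and ISG15 were the only neighbours in this order whose values in the 2 libraries overlapped, and with 2 libraries a test of neighbours was not made.

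Among all 26485 models ranked by TPM at 1000 cells, STAT2 was at place 5242, IRF9 at 7380, IFI6 at 9378 and ISG15 at 9504. OAS3 was at 11581, IFIT1 at 12187, IFI27 at 14646 and OAS2 at 16315. The OAS genes thus differed in level although they are neighbours on the chromosome: OAS3 was the sole OAS gene with more than 50 counts in any library. Without division by length, 6 members changed place. By CPM, OAS3 was at place 3 and IFIT1 at place 4 of the 9, and their models are long, 6638 and 4728 bases against 860 for IFI6 and 666 for ISG15.

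**Figure D2:**
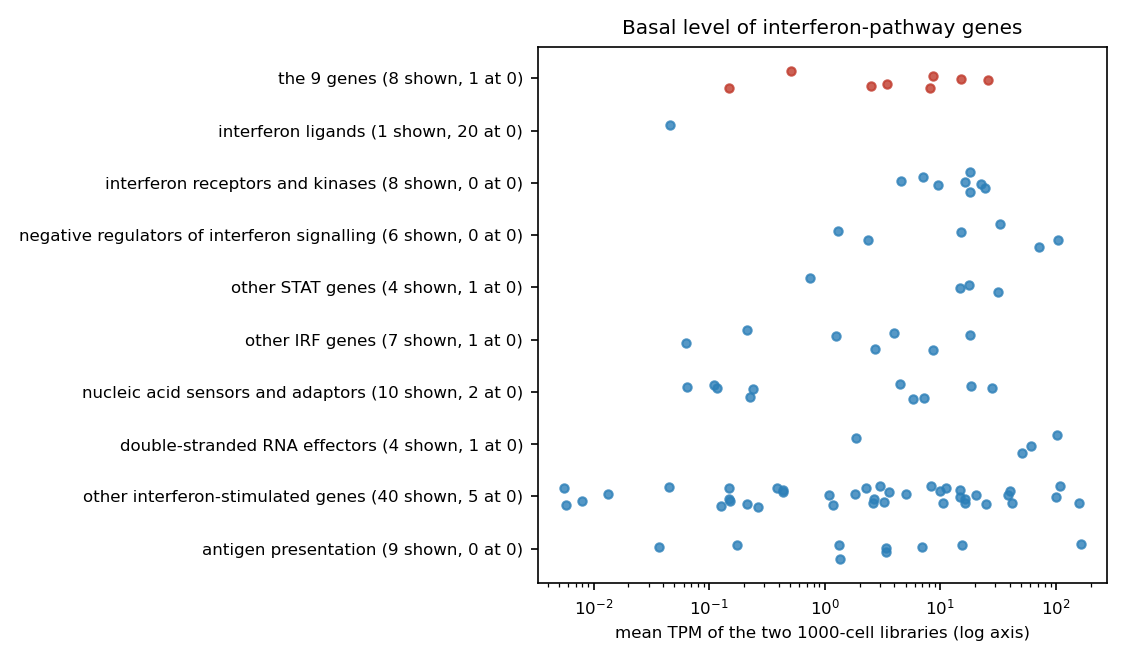
Mean level in both 1000-cell libraries in TPM on a log axis, with 1 point per gene and 1 row per gene list, and the number of genes at 0 in the row label. The members span from 0.148 TPM (OAS2) to 25.7 TPM (STAT2), with OAS1 at 0, and the row of interferon ligands is almost empty. Genes that also have models on alternate contigs, such as IFI27, may be drawn too low.

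The same 6 members had counts in every one of the 3 single cells: OAS3, IFI6, ISG15, STAT2, IRF9 and IFIT1. OAS1, OAS2 and IFI27 had 0 counts in all 3 cells. In the other libraries 8 members had counts in 10 Cell Rep 1, 100 Cell Rep 1 and both 1000-cell libraries, and all 9 had counts in 10 Cell Rep 2 and 100 Cell Rep 2. With a minimum of 10 counts in place of 1, the number fell to 8 in 100 Cell Rep 2 and stayed as it was in the others. Over the 119 genes of the further interferon pathway lists described below, 64, 68 and 66 had counts in the 3 single cells and 76 to 87 in the other libraries. Of all gene models, 52.7% to 54.7% had counts in the single cells and 61.5% to 70.4% in the others.

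Absence from the single cells went with level across all genes. OAS2 and IFI27 lie between 0.1 and 1 CPM at 1000 cells. Of the 3037 genes in that range, 63.2%, 65.6% and 70.2% had 0 counts in Single Cell Rep 1, 2 and 3, and 38.3% had 0 counts in all 3. Of the 3629 genes at 1 to 10 CPM, where IFI6, ISG15 and IFIT1 lie, 8.46%, 12.1% and 15.2% had 0 counts and 1.32% had 0 in all 3 cells. A count of 0 in all 3 cells was thus common in the range that holds OAS2 (0.438 CPM) and IFI27 (0.407 CPM). The share at their own levels within this wide range was not computed.

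OAS1 was the least counted member. It had 46 counts (0.935 CPM) in 10 Cell Rep 2, 2 counts (0.0379 CPM) in 100 Cell Rep 2 and 0 counts in each of the other 7 libraries. It did not pass the filter on low counts and was not tested. The values were not those of a gene shared by the replicates of a group, since 10 Cell Rep 1 and both 1000-cell libraries lacked it.

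OAS2 had 18 and 13 counts with 10 cells, 48 and 30 with 100 cells and 15 and 33 with 1000 cells, which are 0.415, 0.264, 0.930, 0.569, 0.346 and 0.531 CPM. IFI27, a small protein of the mitochondrial membrane, had 48 and 34, 38 and 42, and 13 and 32 counts in the same libraries, which are 1.11, 0.691, 0.736, 0.796, 0.300 and 0.515 CPM. For both genes every library of 10 or more cells lay above every single cell, where no count was found. The single-cell counts of 0 allow a level of up to 0.0194 CPM (3 counts over the 3 cells, covering counting error only). Against that limit, reads of OAS2 were at least 26.3-fold lower in the single cells than the mean of 0.509 ± 0.235 CPM in the others (SD, n = 6). Reads of IFI27 were at least 35.7-fold lower than 0.691 ± 0.272 CPM. These are limits on reads, which carry no molecular identifiers, and not on transcript molecules per cell.

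The quasi-likelihood test of edgeR set the 3 single-cell against the 6 other libraries, over 15603 genes with Benjamini-Hochberg adjustment. In that edgeR test OAS2 (adjusted p = 0.0247) and IFI27 (adjusted p = 0.0222) were called lower. They were 2 of the 8 members tested, where 4.45% of all genes tested were called lower. Both passed the filter only through the 6 larger libraries, so they had to be lower in the single cells if they differed at all. Without 100 Cell Rep 2, 1000 Cell Rep 1 or 1000 Cell Rep 2 no gene of the table passed edgeR's test, and the adjusted p was 0.0672 to 0.0683 for OAS2 and 0.0631 to 0.0656 for IFI27. In libraries of many cells, fewer cells with the transcript and less of it per cell cannot be told apart, and the counts were not split by cell.

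OAS3, the largest of the OAS enzymes, had 26.5, 56.2 and 20.2 CPM in Single Cell Rep 1, 2 and 3. It had 15.6 and 10.9 CPM with 10 cells, 12.5 and 13.9 with 100 cells and 11.3 and 10.9 with 1000 cells. Each single cell was above each of the other libraries, and Single Cell Rep 2 was far above the other cells. The means were 34.3 ± 19.2 CPM (SD, n = 3) and 12.5 ± 1.92 CPM (SD, n = 6). OAS3 was higher by 1.45 on the log2 scale (SE 0.29, edgeR adjusted p = 0.0223). That test takes 1 spread per gene for both groups, while the SD of log2 CPM was 0.764 over the cells and 0.212 over the others. Without Single Cell Rep 2 the log2 difference was 0.90 with an edgeR adjusted p of 0.0184. That setting called more genes over the whole table, 1365 higher and 1823 lower against 347 and 694 with all libraries. The lower adjusted p is therefore no sign of a firmer difference. Without 100 Cell Rep 2, 1000 Cell Rep 1 or 1000 Cell Rep 2 the adjusted p was 0.0635 to 0.0674.

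STAT2, the signalling subunit of ISGF3, had 65.3, 93.7 and 76.3 CPM in the single cells. It had 49.2 and 58.4 CPM with 10 cells, 60.1 and 54.9 with 100 cells and 55.8 and 56.6 with 1000 cells, and the groups again did not overlap. The log2 difference was 0.49 (SE 0.13, edgeR adjusted p = 0.0418), with means of 78.5 ± 14.3 CPM (SD, n = 3) and 55.8 ± 3.74 CPM (SD, n = 6). Leaving out Single Cell Rep 2 gave 0.34 with an adjusted p of 0.0568 in edgeR, and leaving out any 1 of the 6 larger libraries gave an adjusted p of 0.0619 to 0.0993. OAS3 and STAT2 were the members called higher, 2 of 8, where 2.22% of all genes tested were called higher. The members were chosen with earlier results of these data known, so their shares of calls, higher or lower, are no test of the list.

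IRF9, the DNA-binding partner of STAT2, had 20.2, 9.84 and 27.0 CPM in the single cells against 10.8 to 16.4 CPM in the others. Single Cell Rep 2 was below all 6 of the larger libraries and the other 2 cells were above them. The log2 difference of 0.59 (SE 0.30) did not pass edgeR's test (adjusted p = 0.254). Without Single Cell Rep 2 it was 0.90 with an adjusted p of 0.0189, so that 1 cell decided the call. As given for OAS3, that setting also called more genes over the whole table.

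IFIT1 had 8.30, 7.49 and 9.37 CPM in the single cells, 4.64 and 6.89 with 10 cells, 5.15 and 5.86 with 100 cells and 6.22 and 5.28 with 1000 cells. Among the 6 members with counts in the cells it had the least spread between them, and every cell was above every other library. The log2 difference of 0.56 (SE 0.32) did not pass edgeR's test (adjusted p = 0.316). In all, OAS3, STAT2 and IFIT1 had every single cell above the 6 libraries, as did 4.94% of the genes tested, and OAS2 and IFI27 had every cell below them, as did 10.1%.

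IFI6 and ISG15 differed most from cell to cell. IFI6 had 1.24, 8.84 and 1.26 CPM in Single Cell Rep 1, 2 and 3 against 4.66 and 3.62 with 10 cells, 1.10 and 3.45 with 100 cells and 3.30 and 3.78 with 1000 cells. Only Single Cell Rep 2 was above the range of the larger libraries, and the other cells were at its low end beside 100 Cell Rep 1. ISG15 had 0.232, 2.25 and 7.18 CPM in the single cells against 3.57 and 2.19, 1.80 and 2.90, and 3.11 and 2.14 CPM with 10, 100 and 1000 cells. Single Cell Rep 1 was below, Rep 2 within and Rep 3 above the range of the larger libraries. Neither gene passed edgeR's test, with log2 differences of 0.19 (SE 0.72, adjusted p = 0.906) for IFI6 and 0.29 (SE 0.80, adjusted p = 0.860) for ISG15. Both signs turned when 1 cell was left out, to -1.41 for IFI6 without Single Cell Rep 2 and to -1.08 for ISG15 without Single Cell Rep 3.

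**Figure D3:**
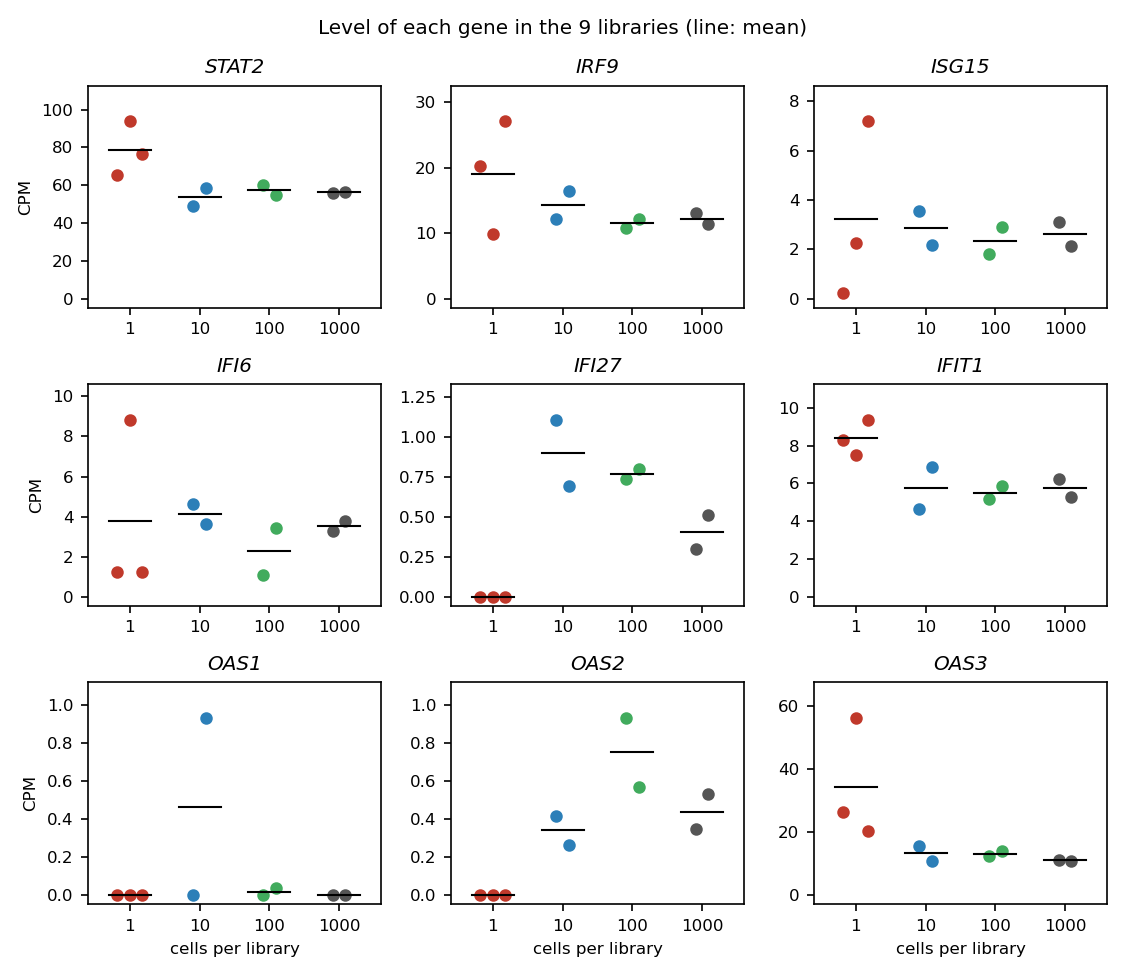
CPM of each member in each of the 9 libraries, with 1 panel per gene, 1 point per library and a line at the mean of each cell number. OAS3, STAT2 and IFIT1 lie above the larger libraries in all 3 single cells. OAS1, OAS2 and IFI27 are at 0 in the single cells, and ISG15 spans 0.232 to 7.18 CPM among them.

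The highest of the 3 cells was 31.0 times the lowest for ISG15, 7.15 times for IFI6, 2.78 times for OAS3, 2.75 times for IRF9, 1.44 times for STAT2 and 1.25 times for IFIT1. The same ratio over the 6 larger libraries was 1.98 for ISG15, 4.22 for IFI6, 1.43 for OAS3, 1.52 for IRF9, 1.22 for STAT2 and 1.49 for IFIT1. Among the 2651 genes at 1 to 10 CPM with counts in all 9 libraries, the median ratio was 5.18 over the cells and 1.91 over the larger libraries, so ISG15 and IFI6 were above that median and IFIT1 below it. Among 7389 genes at 10 to 100 CPM the medians were 1.87 and 1.31, with OAS3 and IRF9 above and STAT2 below for the cells. Ratios of 3 and of 6 libraries are not on the same footing, since a range widens with the number of libraries.

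No cell was high or low for all members. Single Cell Rep 2 was the highest cell for OAS3, IFI6 and STAT2 and the lowest for IRF9 and IFIT1. Single Cell Rep 3 was the highest for ISG15, IRF9 and IFIT1 and the lowest for OAS3. Single Cell Rep 1 was highest for none and lowest for IFI6, ISG15 and STAT2. Relative to the mean of the larger libraries, the 3 cells stood at 2.12, 4.50 and 1.62 for OAS3, at 0.372, 2.66 and 0.381 for IFI6 and at 0.0884, 0.860 and 2.74 for ISG15. With 3 cells, no correlation between members was computed.

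**Figure D4:**
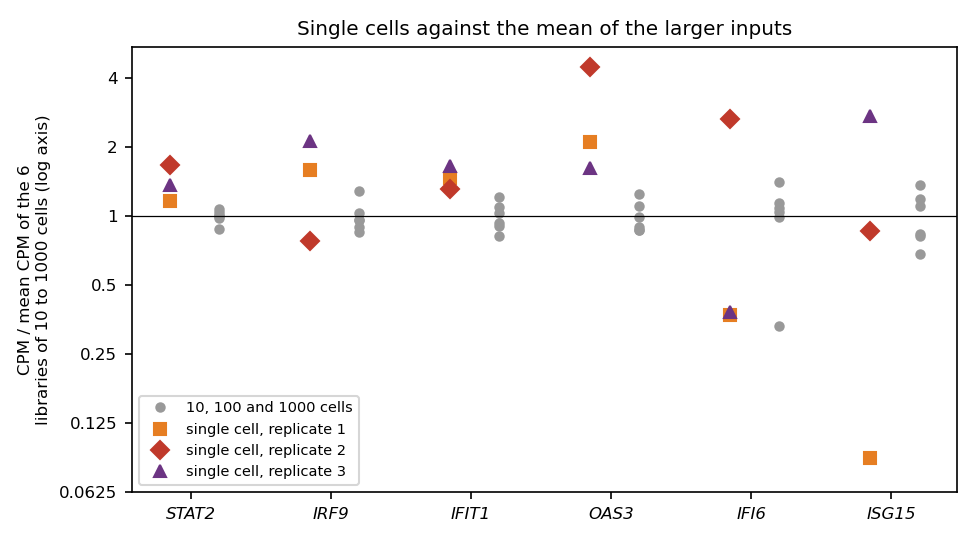
CPM of 6 members in each single cell divided by the mean of the 6 larger libraries, on a log2 axis with a line at 1. OAS3, STAT2 and IFIT1 are above 1 in all 3 cells, while ISG15 runs from 0.0884 in Single Cell Rep 1 to 2.74 in Single Cell Rep 3.

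Between the larger inputs no member passed edgeR's test. For 10 against 1000 cells, 0 of 15449 genes were called (0%), with 861 genes higher and 874 lower at an unadjusted p under 0.05, none of them a member. The log2 differences of the members ranged from -0.37 (OAS2, adjusted p = 0.918 in edgeR) to 1.13 (IFI27, adjusted p = 0.654), and those of the 6 members with counts everywhere from -0.06 (STAT2) to 0.26 (OAS3). For 100 against 1000 cells, 0 of 15597 genes were called (0%), with 173 higher and 141 lower at an unadjusted p under 0.05 and again no member. Here the members ranged from -0.64 (IFI6, adjusted p = 0.952 in edgeR) to 0.90 (IFI27, adjusted p = 0.952). DESeq2 also called 0 members in both comparisons, which share the 1000-cell libraries. With 1 library of a pair left out, the other is assumed to vary like the rest, and IRF9 (0.43, adjusted p = 0.0230) without 10 Cell Rep 1, OAS3 (0.49, adjusted p = 0.00831) without 10 Cell Rep 2 and IFI6 (-1.69, adjusted p = 0.000138) without 100 Cell Rep 2 then passed edgeR's test. OAS1 was also called without 10 Cell Rep 1, which sets the 46 counts of 10 Cell Rep 2 alone against 0 in both 1000-cell libraries. It entered that test only through this library and could only be called higher.

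The rest of the pathway was described through lists of known genes, in the order of the signal. Interferon ligands were nearly absent: 20 of 21, IFNA1, IFNB1 and IFNG among them, had 0 counts in all 9 libraries, and IFNA8 had 2 counts in 1000 Cell Rep 1. The 8 receptor and kinase genes had counts in every library, with TYK2 the highest at 24.6 ± 1.74 TPM in the 1000-cell libraries (SD, n = 2) and IFNLR1 the lowest at 4.55 TPM. None of the 8 passed edgeR's test in the single cells, and their median log2 difference was -0.18. The receptor chain IFNAR1 had 71.5, 50.9 and 52.2 CPM in the single cells against 52.5 ± 2.17 CPM in the others (SD, n = 6). IL10RB, named after its values were seen, had 568, 117 and 2 counts in the 3 cells against 138 to 443 in the others.

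Of 6 negative regulators of interferon signalling 0 passed edgeR's test (median 0.07), with the phosphatase PTPN11 the highest at 104 TPM. SOCS3, which inhibits JAK kinases and was named after its values were seen, had 7, 47 and 569 counts in the cells against 131 to 209 in the others. Of 4 further STAT genes tested, 0 were called (median -0.14, STAT3 the highest at 31.8 TPM), and of 6 further IRF genes 0 (median -0.73, IRF3 the highest at 18.0 TPM). Of 12 nucleic acid sensors and adaptors 8 were tested and 0 were called (median 0.07), TBK1 was the highest at 28.0 TPM, and ZBP1 and AIM2 had 0 counts in all 9 libraries.

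The effectors of double-stranded RNA other than the OAS members were led by the editing enzyme ADAR at 102 TPM, and OASL had 0 counts in all libraries. None of the 4 tested was called (median -0.28).

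Of 45 further interferon-stimulated genes 33 were tested, with a median of -0.14. The highest was BST2, which tethers virus particles, at 159 TPM, and MX2, RSAD2, IFI44 and SAMD9L had 0 counts in all 9 libraries. ZC3HAV1, an antiviral RNA-binding protein, was called higher, with 198 to 224 CPM in the 3 cells against 157 ± 8.08 CPM (SD, n = 6). Its log2 difference was 0.42 (SE 0.076, edgeR adjusted p = 0.0188). EPSTI1 was called lower (edgeR adjusted p = 0.0306), with 0 counts in the cells against 0.464 ± 0.323 CPM, at least 24.0-fold lower in reads. Like OAS2 and IFI27, it passed the filter only through the larger libraries, so its direction was fixed. In all, 10 genes of this list had 0 counts in all 3 single cells only, and 23 had counts in all 9 libraries.

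Of 9 antigen presentation genes, all tested, B2M was the highest at 165 TPM and the median was -0.07. NLRC5, the activator of class I genes, was higher by 1.61 on the log2 scale (SE 0.39, edgeR adjusted p = 0.0351). It had 48.6 and 36.2 CPM in Single Cell Rep 1 and 3 but 8.92 CPM in Rep 2. The value of Rep 2 was below the mean of 10.2 ± 1.87 CPM of the larger libraries (SD, n = 6). PSMB9, an immunoproteasome subunit, was called lower (edgeR adjusted p = 0.0249), and it too could only be called lower. It had 0 counts in the cells against 0.580 ± 0.309 CPM, at least 30.0-fold lower in reads. Of this list 6 genes also have models on alternate contigs, so their TPM, like that of IFI27, may be too low. Over the 119 listed genes of the pathway without the members, 78 were tested. Of these, 2 were called higher and 2 lower, beside 2.22% called higher and 4.45% called lower among all genes tested. Their median log2 difference was -0.14, while that of the 8 members tested was 0.39 and that of all genes tested 0.01. None of the listed genes passed edgeR's test between the larger inputs.

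**Figure D5:**
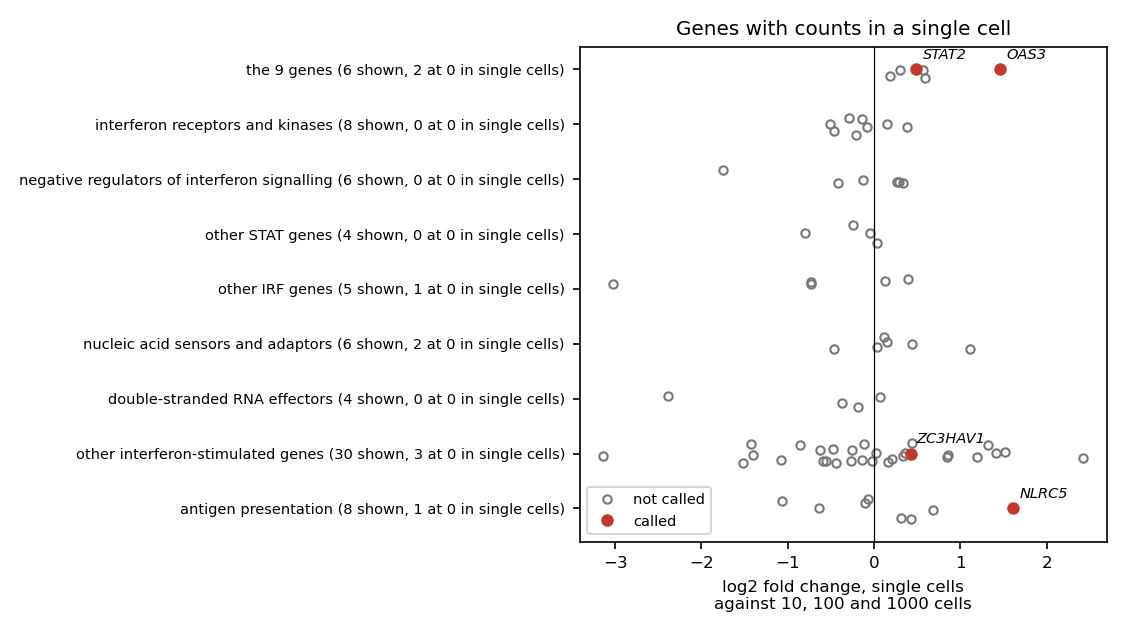
Log2 difference of single cells from the 6 larger libraries for each tested gene with counts in a single cell, with 1 row per list and filled red points for genes past edgeR's test. STAT2, OAS3, ZC3HAV1 and NLRC5 are the red points, all to the right of 0, and genes with 0 counts in all single cells are counted in the row labels and not drawn.

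For each member called, the genes with the most similar pattern were found as Pearson's r of log2 CPM over the 9 libraries, given as a description since the libraries share their input numbers. They were PHF21A (0.974) and CDAN1 (0.966) for OAS3, ADCK4 (0.990) and TAF3 (0.985) for STAT2, MIR616 (0.988) and LINC01473 (0.987) for OAS2, and OR6A2 (0.992) and LRRC66 (0.990) for IFI27. None of these 8 genes is on the lists above. At r of 0.95 or more there were 10 genes for OAS3 and 16 for STAT2, but 130 for OAS2 and 126 for IFI27, whose pattern is 0 counts in the single cells.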

How the data were processed

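HAP1 RNA was sequenced from 3 single cells and from 2 libraries each of 10, 100 and 1000 cells. Per the labels, the authors used FastQC 0.11.9, Trim Galore 0.6.7, HISAT2 2.2.1 on hg38, SAMtools 1.16.1 and featureCounts of Subread 2.0.6. The deposited values are whole read counts, with the strand setting 2 in the file headers, no molecular identifiers and multi-mapped reads left out. The annotation release is not given in the sources used here.

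From these counts, TMM-scaled CPM and TPM (from the deposited gene lengths) were computed. Groups were compared in R 4.3.3 with edgeR 4.0.16 (filterByExpr, quasi-likelihood test, Benjamini-Hochberg adjusted p under 0.05 over all genes tested). Log2 CPM for likeness used a prior count of 2. The alternatives were DESeq2 1.42.0, other size factors, no filter, a replicate block, and each library left out in turn. The members and lists were chosen with earlier results of these data known. Named were all members, the called genes and the highest gene of each list, and up to 3 genes at 0, except where the text says otherwise. THY1, SDC1, PTPRC, IFNLR1 and IFNAR1 were named outside this rule, with their values known. All 4 genes at 0 among the further interferon-stimulated genes were named too. Intervals and floors cover counting error only. The values of 1 listed gene are not reported here.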

Additional observations from a re-analysis of the deposited data

Results flagged for a closer look

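OAS1 stood out in 1 library. Among the 6 libraries of 10 or more cells its level was 0.935 CPM in 10 Cell Rep 2, while the next highest was 0.0379 CPM and the other 4 were at 0, so the gap took up 0.959 of the whole range, above Dixon's limit for 6 samples. The 9 members were examined in this way, and chance alone marks about 1 in 20 such groups where values are normally spread. OAS1, with 4 of the 6 libraries at 0, is not spread in that way, so this rate does not apply to it.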

How the results depend on the processing

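OAS3 kept its direction under all 13 alternatives, while that of OAS2 and IFI27, at 0 in every single cell, could not turn. These 3 genes kept their call in 10 each, the exceptions being those without 100 Cell Rep 2, 1000 Cell Rep 1 or 1000 Cell Rep 2, where edgeR called no gene at all (smallest adjusted p 0.0540 to 0.0569). The log2 difference of OAS3 ranged from 0.90 to 1.73. STAT2 kept its direction (0.34 to 0.60) and lost its call in 8 of 13, among them no filter on low counts (edgeR adjusted p = 0.0556), which left 1 member called higher. IFI6 reversed to -1.41 without Single Cell Rep 2 (-1.41 to 0.60 with 1 library left out), and ISG15 to -1.08 without Single Cell Rep 3 (edgeR adjusted p = 0.360, -1.08 to 0.84 with 1 library left out). The cause was not tested. Depth sets the limit of 0.0194 CPM in reads that 0 counts over the 3 cells allow, and not a limit in molecules, which were not counted. Single-cell totals were within the range of the others, yet 13968 to 14478 gene models had counts in them against 16283 to 18634 in the others.

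Over all genes, single cells against the others gave 1061 higher and 1534 lower with DESeq2 and 435 lower without the filter. For 10 against 1000 cells DESeq2 gave 92 higher and 102 lower, and no filter 51 and 72. For 100 against 1000 cells DESeq2 gave 1 higher and 0 lower, and no filter 16 and 15. Leaving out 1 library gave 0 to 1365 genes higher and 0 to 1823 lower in the single cells (members 0 to 2 each way), 7 to 2167 and 4 to 2554 for 10 cells (members 0 to 2 higher, 0 lower), and 2 to 2353 and 1 to 2598 for 100 cells (members 0 higher, 0 to 1 lower). Where 1 library was left in an arm, it was assumed to vary like the other group.

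Replicate numbers are only names here: same-numbered libraries deviated together with correlations of -0.024 to 0.025. With the replicate number as a block, edgeR called 790 genes higher and 1287 lower in single cells, 31 and 24 in the 10-cell comparison, 5 and 15 in the 100-cell one, and no member's call changed. ISG15 reversed to -1.29 with the block (adjusted p = 0.324 in edgeR). Replicate number 3 exists only among the single cells, so the block takes up Single Cell Rep 3. The block result for the single cells thus rests on Single Cell Rep 1 and 2 and is no check of all 3 cells.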
